A study of Arabidopsis thaliana with 2 samples.

Results

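ERF115 is a plant transcription factor of the AP2/ERF family, and the peaks described here are those its tagged form gave at 6 Arabidopsis thaliana genes for cell wall loosening and xyloglucan turnover. The genes are the expansins EXP3 (AT2G37640, also called EXPA3), EXPA4 (AT2G39700), EXPA8 (AT2G40610) and EXPB3 (AT4G28250), and the xyloglucan enzyme genes XTH30 (AT1G32170) and XYL1 (AT1G68560). They were selected on the authors' annotated peak list, chosen by the presence of a called peak at each locus, so their having a peak is a condition of the choice and not a finding. These 6 loci are among 608 loci in that list, and 7 of its 612 peaks belong to them, since XTH30 has 2.

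The study used PSB-D, a Landsberg erecta cell suspension grown in darkness in medium with the auxin NAA and the cytokinin kinetin. The bait culture had the genotype 35S::ERF115-HBH, in which the constitutive 35S promoter drives ERF115 with the HBH affinity tag. The mock culture was wild type and lacked the fusion. Both were harvested 2 days after subculturing, fixed for 10 minutes in 0.75% formaldehyde and purified over nickel and streptavidin beads. There was 1 library of each, so no value below has a replicate error, and no difference between peaks was tested. The 35S promoter is not the gene's own, so the level of the fusion may differ from that of native ERF115, and neither was measured here.

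The plant primary wall is a network of cellulose microfibrils tied by hemicelluloses, among which xyloglucan is the main one in Arabidopsis, and by pectins. Expansins loosen that network in acid conditions without cutting it, and are grouped as alpha-expansins (EXPA) and beta-expansins (EXPB). XTH enzymes cut xyloglucan chains and rejoin or hydrolyse them. XYL1 is an alpha-xylosidase that removes xylose side residues from xyloglucan fragments during their breakdown.

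The expansin peaks held both ends of the range of scores among the 7 peaks, with EXPA8 at the top and EXPB3 at the bottom. The authors' peak score is the significance value their peak caller wrote for each peak, and it is compared here only within this one list. MACS derives it from the negative logarithm of the p-value, so a larger score is a smaller p-value and not a higher fold enrichment. The list starts at 50.01 and has a median of 78.9.

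EXPA8, an alpha-expansin, had a score of 191.95, which ranked 39 of 612 and was higher than 93.6% of peaks. Its peak ran from 16950146 to 16951580 on chromosome 2 (TAIR10) and was labelled intergenic 5'. Among the 275 peaks with that label it ranked 20, and among the 76 peaks of chromosome 2 it ranked 9. EXPA8 was thus the wall gene whose peak stood farthest above the list median.

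EXP3, also an alpha-expansin, had a score of 118.02 and ranked 144, above 76.5% of peaks. Its peak lay on chromosome 2 from 15789313 to 15791252 with an intergenic 5' label, where it ranked 62 of 275. EXP3 was the one gene of the 6 whose peak bore the mark TP, which the authors' deposited table gives to 22 of 612 peaks (3.59%) under the heading DE. The sources used here do not say what that mark means. By score the EXP3 peak ranked 9 among those marked peaks. EXPA8 and EXP3 were the only 2 of the 6 genes with a peak scoring at least 100, a level that 192 peaks reached, and also the only 2 above the list median.

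EXPA4, the third alpha-expansin, had a score of 64.27 and ranked 423. Its peak, on chromosome 2 from 16542879 to 16544659, was labelled UTR 3', a label that only 23 peaks carried (3.76%). It ranked 18 among those 23. It was the one peak of the 7 with a 3' label.

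EXPB3, the beta-expansin, had the lowest score of the 7 peaks, 52.72, which ranked 564 and lay 2.71 above the lowest score in the list. Its peak ran from 14000477 to 14005059 on chromosome 4 and was labelled intron 5', like 13 peaks in all, and it ranked last (13) of them. EXPA8's score was 3.64 times that of EXPB3. Since no replicate exists, whether a peak this close to the lower end of the list would be called again cannot be seen from these files.

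XTH30 was one of 4 loci in the list with 2 peaks, and no locus had more. The first ran from 11571695 to 11574407 on chromosome 1, with a score of 72.49 and rank 351. The second ran from 11574704 to 11579353, with a score of 56.85 and rank 512. Both were labelled intergenic 5' and both scored below the list median. Only 296 bp separated them, a gap that 7 of the 607 pairs of consecutive peaks on a chromosome matched or undercut. Gaps were also small at the other loci with 2 peaks, at 181, 372 and 423 bp. Together with the 296 bp between them, the XTH30 peaks spanned 7659 bp. The authors' table names the gene by its older symbol, XTR4.

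XYL1 had 1 peak, on chromosome 1 from 25736993 to 25739382, with a score of 74.27 and rank 339. It was labelled coding 5' and ranked 38 of the 62 peaks with that label. The XYL1 peak and both XTH30 peaks thus all scored under the list median, and their 3 scores, from 56.85 to 74.27, lay between those of EXPB3 and EXP3. The median over all 7 wall gene peaks was 72.49.

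**Figure D1:**
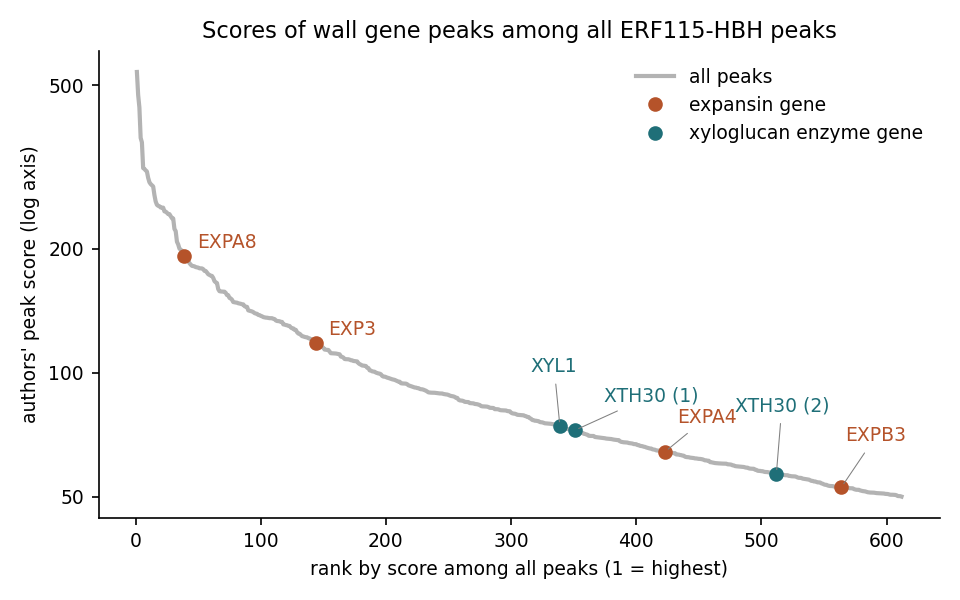
Authors' peak score (log axis) against rank by score for all 612 ERF115-HBH peaks (grey line), with the 7 wall gene peaks as points; XTH30 (1) and (2) are its first and second peak along the chromosome. EXPA8 and EXP3 lie at ranks 39 and 144, and the other 5 peaks lie at ranks 339 to 564.

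Position labels at the 6 genes were mixed. Of the 7 peaks 4 were intergenic 5' (57.1%, against 44.9% of all peaks) and 3 were labelled inside a gene (42.9% against 35.9%). A 5' label of some kind stood beside 6 of the 7, against 65.2% of all peaks. The intergenic 5' peaks were those of EXPA8, EXP3 and XTH30, while XYL1, EXPB3 and EXPA4 had labels within the gene. The sources used here do not say how these labels were assigned, and each peak has a single label even where it may reach beyond that feature.

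The wall gene peaks also differed in width. EXPA8 had the narrowest, at 1435 bp, followed by EXPA4 at 1781 bp and EXP3 at 1940 bp. XYL1 had a width of 2390 bp and the first XTH30 peak 2713 bp. EXPB3 and the second XTH30 peak were far wider, at 4583 and 4650 bp, and ranked 47 and 44 by width. The median was 2390 bp for the 7 wall gene peaks and 1894 bp for all peaks. Within this small set the 2 widest peaks had the 2 lowest scores and the narrowest had the highest. Across all 612 peaks width and score were almost unrelated (Spearman's rho 0.10, a description over peaks of 1 library), and peaks of at least 4000 bp had a median score of 95.3. EXPB3 scored lower than most such broad peaks, since 7 of the 66 lay below it.

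Inside each peak the authors give 1 position, taken here as its reference point. At EXPA8 it lay 31 bp from the midpoint, the closest of the 7. It lay 104 bp from the midpoint at EXPA4, 124 bp at the first XTH30 peak, 361.5 bp at XYL1 and 375.5 bp at EXP3. At EXPB3 and the second XTH30 peak it lay much farther out, 1568 and 1862.5 bp from the midpoint. The median over all peaks was 208.8 bp. In these 2 broad peaks the point sat at 15.8% and 9.96% of the width from the lower coordinate, and that of XTH30 was the most off-centre, by share of width, of all 612.

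The distance to the nearer end of the peak varied less than the distance to the midpoint. It was 462 bp at the second XTH30 peak, 594 bp at EXP3, 686 bp at EXPA8 and 723 bp at EXPB3. It was 786 bp at EXPA4, 833 bp at XYL1 and 1232 bp at the first XTH30 peak. Over all 612 peaks the quartiles of this distance were 606 and 821 bp. The EXPB3 peak therefore extended 3859 bp beyond its reference point on the side of higher coordinates, and the second XTH30 peak 4187 bp. The second XTH30 point lay in the end that faces the first XTH30 peak, and the points of that pair were 2239 bp apart. The point lay below 20% or above 80% of the width in 19 of the 66 peaks of at least 4000 bp (28.8%). Over all 612 peaks, these 19 included, it did so in 42 (6.86%). This contrast is partly fixed by width, since the point was never closer than 321 bp to an end. A narrow peak thus has little or no room for such a point. In the 322 peaks under 2000 bp the point lay between 26.5% and 73.8% of the width.

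**Figure D2:**
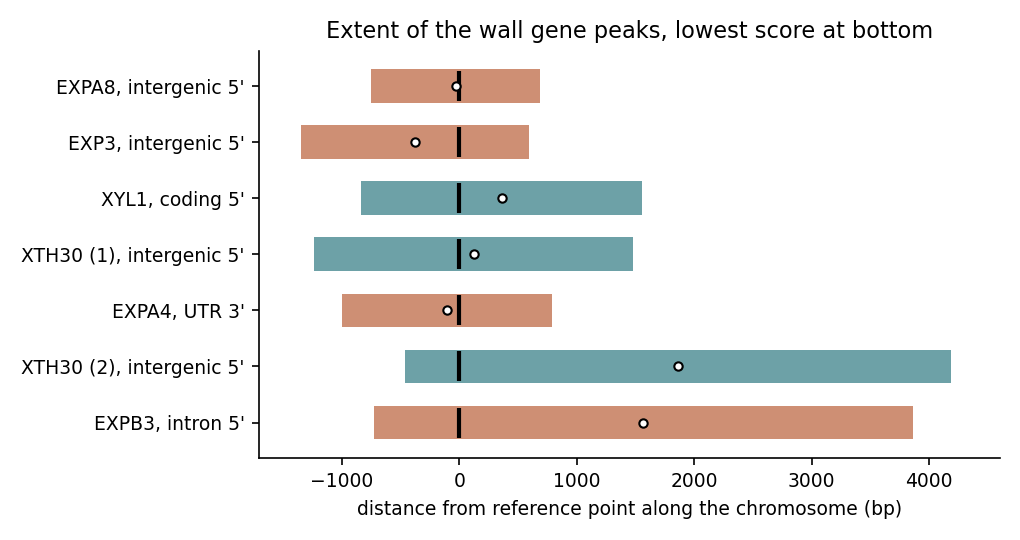
Extent of each wall gene peak in bp around its reference point (black tick at 0), with higher chromosome coordinates to the right; open circles are midpoints, orange bars expansins, blue-green bars xyloglucan enzyme genes. The peaks of EXPB3 and XTH30 (2) extend 3859 and 4187 bp to the right, while the EXPA8 peak is nearly symmetric.

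**Figure D3:**
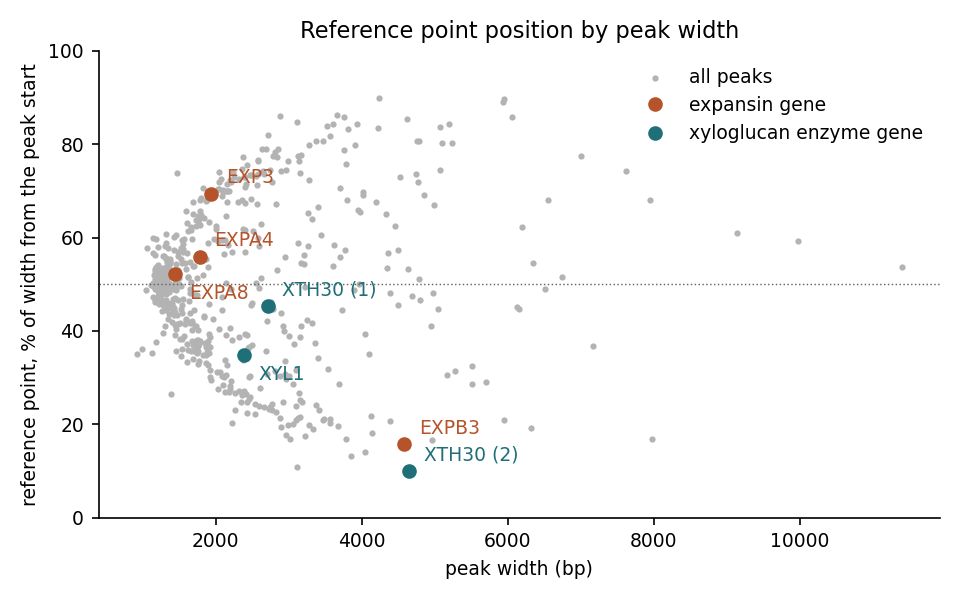
Reference point position, in percent of the width from the peak start, against peak width in bp for all 612 peaks (grey) and the 7 wall gene peaks (coloured); the dotted line marks the midpoint. Narrow peaks cluster near the midpoint, and XTH30 (2) at 9.96% is the most off-centre point of the list.

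The other members of these gene families were counted next. Expansins are represented by 37 protein-coding genes in the gene table, counting the expansin-like ones, and 4 had a peak (10.8%). The background is 564 of 27444 nuclear protein-coding genes, or 2.06%. Those 4 are the expansins described above, chosen because they have one, so this share carries no test. By class they were 3 of 25 alpha-expansins, 1 of 6 beta-expansins and none of 6 expansin-like genes. XTH30 was the 1 of 33 XTH genes with a peak, a share of 3.03% that is near the background. Among 18 genes of xyloglucan synthesis and trimming, XYL1 alone had one (5.56%). XTH30 and XYL1 were likewise chosen for having a peak, so neither share carries a test. The 17 xyloglucan genes without one include the xylosyltransferases XXT3, XXT4 and XXT5, which add xylose to the glucan backbone. They also include the galactosyltransferase MUR3 and the beta-galactosidase BGAL10. At scores of at least 100, where the background was 0.656%, 2 expansins had a peak and no gene of the XTH or xyloglucan lists did. Among the 306 peaks with the highest scores, with a background of 1.04%, the same 2 expansins remained.

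The peaks of EXP3, EXPA4 and EXPA8 all lay on chromosome 2. Their reference points fell within 1.16 Mb, with 753.2 kb from EXP3 to EXPA4 and 407.0 kb from EXPA4 to EXPA8. Between the first pair lay 5 other peaks and between the second pair 1. Chromosome 2 holds 76 of the 612 peaks and 8 of the 37 expansins. Chromosome 4, with EXPB3, holds 6 expansins. Chromosomes 1, 3 and 5 hold 7, 7 and 9 expansins, none with a peak. Each chromosome holds few expansins, the background is 2.06% of genes, and the spread of expansin peaks over chromosomes was not tested. The nearest other peak was 311321 bp away at EXPA8, 258130 bp at EXP3, 55470 bp at EXPA4 and 20443 bp at EXPB3. The median distance to the nearest peak over the list was 37378 bp, close to the 37420 bp at XYL1.

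Each peak in the list is assigned to a single locus, so one counted for a wall gene cannot also count for a neighbour. In the order of protein-coding genes, none directly next to the 6 loci had a peak of its own, at a background of 2.06% of genes. Those neighbours, named here as context after their lack of a peak was seen, include AS1, a MYB regulator of leaf development, beside EXP3, and bZIP18 beside EXPA8. XTH30 lies beside CSLD6, a member of the cellulose synthase-like D family, and XYL1 beside CRF10, a cytokinin response factor gene of the AP2/ERF family. Within 5 genes on either side the one gene with a peak was ATS1 (AT1G32200), 3 genes from XTH30, with a score of 113.57 and rank 154. Neither this count nor the lack of peaks directly beside the loci was tested against that background. At a share of 2.06%, few or none of so small a number of genes would have a peak. ATS1 encodes a plastid glycerol-3-phosphate acyltransferase of lipid synthesis. Its peak began 18206 bp after the second XTH30 peak ended and scored higher than either XTH30 peak.

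The 82 genes of the 3 lists without a peak lay a median of 24 genes from the nearest gene that had one, against 21 for all genes without a peak. The medians were 35 for expansins, 17.5 for XTH genes and 29 for the xyloglucan list. XTH28 and XT1 (also called XXT1), singled out after their values were seen, were the 2 that lay directly beside a gene with a peak. Counting such neighbours, where the background is also higher at 5.93%, gave 2 of 33 XTH genes, 2 of 18 in the xyloglucan list and 4 of 37 expansins. No difference from that background was tested.

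**Figure D4:**
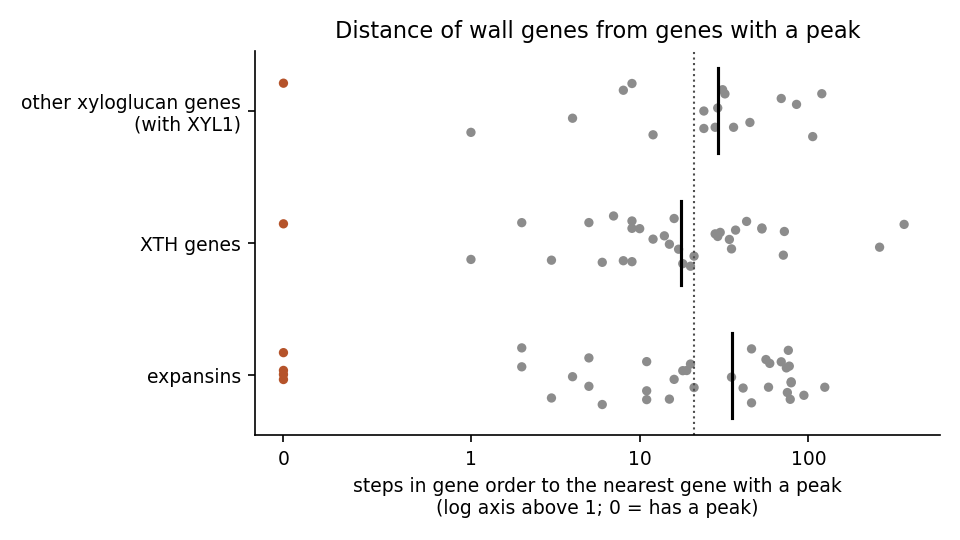
Number of steps in the order of protein-coding genes from each gene of the 3 lists to the nearest gene with a peak (0 for a gene with a peak, orange; log axis above 1); vertical position within a row is random. Black bars are medians over genes without a peak, 35 for expansins, 17.5 for XTH genes and 29 for other xyloglucan genes, and the dotted line is the median of 21 for all such genes.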

How the data were processed

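Chromatin bound by ERF115-HBH and a mock purification were sequenced. The submitters' processing notes name BWA 0.5.9, MACS 1.4.2, Picard, CASAVA 1.8.2 and SAMtools 0.1.18, and the genome build TAIR10. The sources used here do not give parameters, filters or the use of the mock in peak calling. The authors deposited a peak list and an annotated copy for the ERF115-HBH library. The deposited score is the value of their peak caller, not scaled between libraries. The mock's own signal was not analysed here, and read depth is unknown, so the depth behind each peak cannot be given. Reads came from Landsberg erecta and the gene table describes Columbia; the effect on these loci was not tested.

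Both files were joined by peak name with Python 3.11.15 and pandas 2.3.3, starts were written 1-based, and ranks give 1 to the highest value. Ranks, widths, reference point distances and steps in gene order were tested on simulated data, and the joining was not. Names and gene order, and no coordinates, came from a RefSeq table of TAIR10.1, which holds all 6 loci. Families were found there by symbol or synonym. Of 19 loci listed for xyloglucan, 18 were found. The genes named are the 6 loci, members of the lists with a peak, and neighbours with a peak; others are marked as chosen after their values were seen, or stand as examples without one. The members and lists were chosen with earlier results of these data known. No test was run, because the members were chosen from the peak list and there is 1 library per group. Comparisons of promoter motifs, of motifs within peaks and of protein sequences were not run, since no sequence was used here.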

Additional observations from a re-analysis of the deposited data

How the results depend on the processing

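No paired analysis was possible because there was 1 library per group, and for the same reason no replicate could be left out. Of the 6 loci, 2 remained among the 306 peaks ranked highest and 2 at scores of at least 100, and these were EXPA8 and EXP3 in both cases. The count of expansins with a peak, 4, fell to 2 under each of these limits, that of XTH genes from 1 to 0 under each, and that of the xyloglucan list from 1 to 0 at a score of at least 100. Counting genes next to one with a peak, at a background of 5.93%, gave 2 for the XTH genes and 2 for the xyloglucan list. Searching by current symbol alone changed none of the 3 counts with a peak, but it shortened the lists they come from. The expansins fell from 37 to 35 genes, the XTH genes from 33 to 30 and the xyloglucan list from 18 to 11. The median score of the 7 peaks stayed between 68.38 and 74.27, and the median width between 1940 and 2551.5 bp, when each gene was left out in turn. The median rank of 351 became 421 by score per kb of width. The median distance of the reference point to the midpoint, 361.5 bp, corresponds to 15.1% of the width, and the median distance to the nearer end was 723 bp. The planned motif searches were not run, for lack of sequence. Unknown depth and a single library limit what the lack of a peak at other family members can show.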
